A study of Mus musculus with 2 samples.

Results

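The genes described here encode the ligands, receptors and intracellular effectors of the Wnt pathway. They were taken by name from GENCODE vM21 and number 38 of the 21938 protein-coding genes on chromosomes 1 to 19, X and Y of mm10. The ligands are 13 Wnt genes. The 12 receptors are the 10 Frizzled genes *Fzd1* to *Fzd10* and the coreceptors *Lrp5* and *Lrp6*. The 12 effectors are *Ctnnb1*, *Apc*, *Axin1*, *Axin2*, *Gsk3b*, *Dvl1*, *Dvl2*, *Dvl3*, *Tcf7*, *Tcf7l1*, *Tcf7l2* and *Lef1*. *Dkk1*, a secreted inhibitor, is given by itself. The rule that names them uses no measured value, although it was written with earlier results of these data known. Chromatin accessibility was profiled by ATAC-seq, an assay in which Tn5 transposase cuts into DNA free of nucleosomes, in the mESC line EHMT2-dTAG-mcherry of BL6/129 hybrid background. In this line a degron tag, HA tags and an mCherry reporter were added to the endogenous *Ehmt2* gene, which encodes an H3K9 methyltransferase. Cells of 2 independent clones were cultured in medium with FBS and LIF and exposed for 24 h to DMSO, the solvent without the degrader, with 50000 cells taken per sample. Both clones form 1 group with 1 peak list between them, so there was no second condition, and no difference between genes could be set against a replicate spread.

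Wnt proteins are lipid-modified ligands that bind a Frizzled receptor together with Lrp5 or Lrp6. Without ligand, a complex of Axin, Apc and Gsk3b marks β-catenin, the product of Ctnnb1, for degradation. With ligand, Dishevelled proteins (Dvl genes) help to disable that complex, and β-catenin enters the nucleus and binds factors of the Tcf/Lef family. In mESCs, Wnt signaling is known to favor self-renewal, Tcf7l1 acts mainly as a repressor of pluripotency genes, and Axin2 and Lef1 are familiar targets of the pathway.

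Peaks that overlapped the window from 500 bp before to 500 bp after the annotated start were assigned to that start. The locus of a gene ran from 10 kb upstream to the gene end. Fold enrichment is the ratio of the fragment pileup at the peak summit to the local background. The number of fragments over the summit was calculated back from fold enrichment and p-value with a pseudocount of 1, and is given with an exact 95% Poisson interval, which covers counting error only. The 116777 peaks of the list had a median of 9 fragments over the summit (quartiles 7 and 17) and a median fold enrichment of 3.98, and the weakest rested on 6 fragments. The depth of each sample is unknown, and a start without a peak is a start where no pileup passed the threshold of the peak caller (q of 0.05), not a closed start. Peaks with a −log10 q-value of 10 or more are called strong below.

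The sequences just upstream of the start with the highest fold enrichment in each class are shown first, so that the CpG content of each of these starts can be read. They are the 120 bases before the start of *Wnt16* (chr6:22288107-22288226), *Fzd4* (chr7:89404235-89404354) and *Gsk3b* (chr16:38088881-38089000) in the mm10 reference genome, all on the plus strand and 5′ to 3′, with each CG in capitals.
Wnt16 upstream: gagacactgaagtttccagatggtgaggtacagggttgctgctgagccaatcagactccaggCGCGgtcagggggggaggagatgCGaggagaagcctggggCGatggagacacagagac
Fzd4 upstream: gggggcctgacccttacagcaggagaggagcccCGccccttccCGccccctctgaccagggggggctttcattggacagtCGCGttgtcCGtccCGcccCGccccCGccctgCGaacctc
Gsk3b upstream: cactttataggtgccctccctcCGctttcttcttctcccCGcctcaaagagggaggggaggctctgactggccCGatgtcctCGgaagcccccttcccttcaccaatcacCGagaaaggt
The *Fzd4* sequence held 9 CG, the *Gsk3b* sequence 5 and the *Wnt16* sequence 4. Over all protein-coding genes the median was 5 CG in these 120 bases, and over the genes with a peak at the start it was 8. The median was 10 for the ligands, 10 for the receptors and 13.5 for the effectors, so ligands and receptors had the same median in this window, and all 3 sequences held fewer CG than the median of their class. All 3 sequences also hold the letters CCAAT on either strand, which were looked for after the sequences had been seen. These letters occurred upstream of 3 ligands, 5 receptors and 2 effectors, and upstream of 23.5% of all protein-coding genes.

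Receptor genes and effector genes had a peak at nearly every start, whereas ligand genes had fewer and weaker peaks. A peak overlapped the start of 9 of the 13 ligands (69.2%), of all 12 receptors and of 11 of the 12 effectors (91.7%). Over all protein-coding genes this share was 64.3%, so the ligands were near the background and both other classes above it. With strong peaks alone, 2 ligands (15.4%), 11 receptors (91.7%) and 8 effectors (66.7%) kept a peak, against 47.1% of all protein-coding genes. At this threshold the ligands fell below the background. Among all 38 genes, 33 had a peak at the start and 21 had a strong one.

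The classes also ranked in the same order by the strength of the peak. Among genes with a peak at the start, the median fold enrichment was 5.32 in ligands, 8.43 in receptors and 8.19 in effectors, and 8.43 over all protein-coding genes. In fragments the medians were 15, 37.5 and 35, against 32 over all genes (quartiles 18 and 53). Every one of the 9 ligands with a peak lay below that median of 32, and 6 of them below the lower quartile. Of the receptors 5 of 12 lay below the median and 4 above the upper quartile, and of the effectors 5 of 11 and 3. The classes still overlapped, as ligands ranged from 8 to 31 fragments, receptors from 14 to 131 and effectors from 13 to 159. The local background around the summit moved in the same direction, with medians of 2.24 fragments in ligands, 4.29 in receptors and 4.24 in effectors, and 2.90 over all genes. Fold enrichment, which divides by this background, kept the order of the classes.

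**Figure D1:**
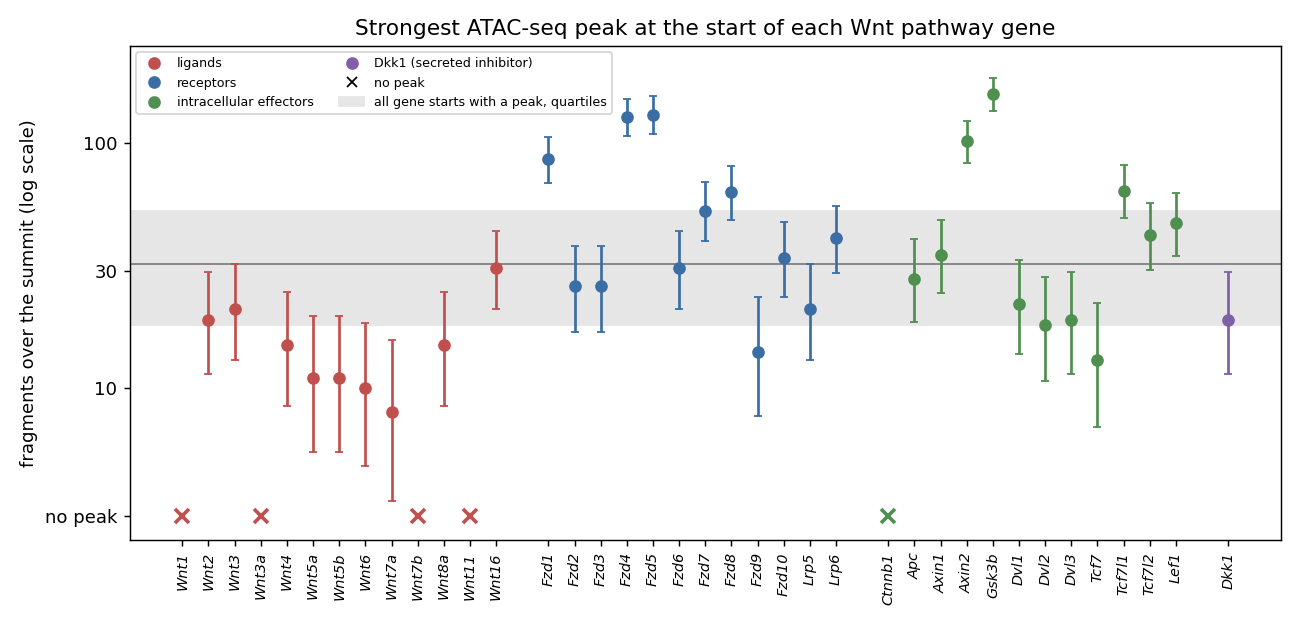
Fragments over the summit (log scale) of the strongest peak at the start of each of the 38 genes, with exact 95% Poisson intervals as bars; crosses mark starts without a peak, and the grey band and line give the quartiles (18 and 53) and the median (32) of all protein-coding gene starts with a peak. The 9 ligands with a peak lie at 8 to 31 fragments, all below the line, whereas receptors reach 131 and effectors 159.

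Higher thresholds left receptors and effectors but no ligands. No ligand start had a −log10 q-value of 20 or more, whereas 7 receptors and 5 effectors did, against 32% of all protein-coding genes. At 50, 3 receptors and 2 effectors were left and the background was 10.5%. At 100, *Gsk3b* was the only start of the 38, beside 1.79% of all protein-coding genes.

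**Figure D2:**
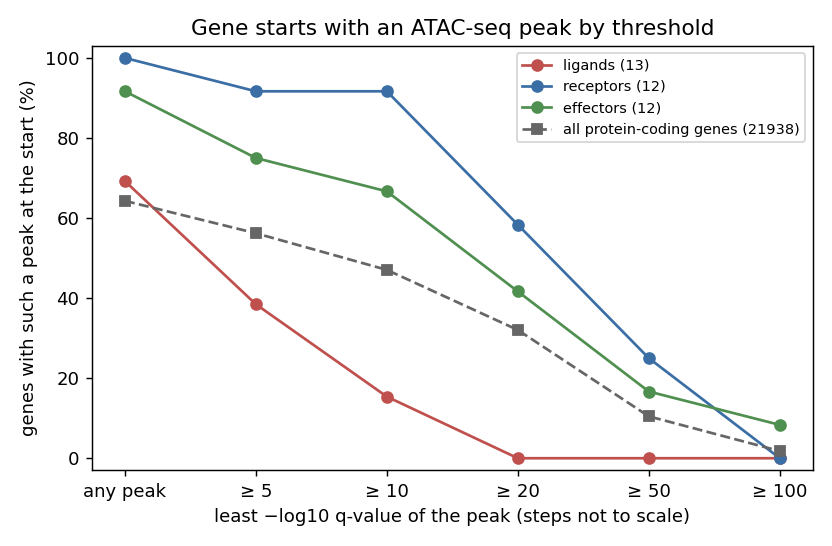
Percent of ligands, receptors, effectors and all protein-coding genes with a peak at the gene start as the least −log10 q-value asked of that peak is raised; the steps on the horizontal axis are not to scale. Ligands start near all genes (69.2% and 64.3%) and lie below them from a value of 5 on, while receptors and effectors lie above all genes up to a value of 50.

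Among the ligands, *Wnt16* had the strongest start. Its peak on chromosome 6, from 22287877 to 22289396, had 31 fragments (21.1 to 44.0), a fold enrichment of 8.16 and −log10 q at 18.8, with its summit 16 bp downstream of the start. *Wnt3*, a ligand of the β-catenin branch that is needed for gastrulation, followed with a fold enrichment of 7.43 and 21 fragments (13 to 32.1). *Wnt4*, known from kidney and gonad development, had 15 fragments (8.40 to 24.7) and a fold enrichment of 6.02. The counting intervals of these 3 starts overlap, although the count of *Wnt16* lies above the interval of *Wnt4*. *Wnt16* and *Wnt3* were also the only ligands with a strong peak at the start.

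Fold enrichment was lower at the other 6 ligand starts with a peak. *Wnt2* had 19 fragments, *Wnt8a* 15, *Wnt5a* and *Wnt5b* 11 each, *Wnt6* 10 and *Wnt7a* 8. *Wnt5a*, the best-known ligand of the branch that does not act through β-catenin, had a fold enrichment of 2.79 at its start, with a −log10 q-value of 1.74 close to the limit of the list. The peak at *Wnt7a* was as weak, with a fold enrichment of 2.78 and its summit 684 bp upstream of the start. Fold enrichment at the start of *Wnt6* was 2.97.

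At 4 ligands no peak overlapped the gene start. The nearest peak was 543 bp away at *Wnt7b*, 1506 bp at *Wnt1*, 1556 bp at *Wnt11* and 3002 bp at *Wnt3a*. *Wnt1* and *Wnt3a* are classical ligands of the β-catenin branch. At *Wnt11* a peak with 11 fragments (5.49 to 19.7) and a fold enrichment of 3.0 covered another annotated transcript start, 3733 bp downstream. *Wnt7b* had a peak of 7 fragments (2.81 to 14.4) within 500 bp of the start of a transcript inside the gene that is not annotated as protein-coding, and no protein-coding start of *Wnt7b* had a peak. When the starts of annotated transcripts of every kind were taken, this one included, 11 of 13 ligands (84.6%) had a peak, against 70% of all protein-coding genes, and *Wnt1* and *Wnt3a* remained without.

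Several ligand genes had their strongest peak away from the start. In *Wnt6*, an intronic peak 1440 bp downstream of the start had 26 fragments (17.0 to 38.1) and a fold enrichment of 6.99, beside the 10 (4.8 to 18.4) at the start. In *Wnt7a*, an intronic peak 1688 bp downstream had 24 fragments (15.4 to 35.7) and a fold enrichment of 8.06, an interval that barely overlaps that of the 8 fragments (3.45 to 15.8) at the start. *Wnt5a* had peaks with 20 and 19 fragments 5413 and 8315 bp downstream, the first of them within 500 bp of the start of a *Wnt5a* transcript not annotated as protein-coding. In *Wnt5b*, the strongest peak of the locus, with 39 fragments, lay 65007 bp downstream over the start of *Fbxl14*, another gene. A further *Wnt5b* peak with 20 fragments covered a transcript start of *Wnt5b* itself, 94961 bp downstream of the first.

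*Wnt7b*, without a peak at its start, had the most peaks of any ligand locus. Its 8 peaks had between 7 and 14 fragments, and none was strong. The locus of *Wnt3* held 5 peaks, as did those of *Wnt5a* and *Wnt5b*. In all, the 13 ligand loci held 47 peaks, of which 9 lay at the gene start, 4 upstream, 9 in exons and 25 in introns.

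All receptor starts carried a peak. *Fzd4*, the receptor of norrin and of Wnt ligands in retinal vessels, had the highest fold enrichment of the class, 12.9, with 128 fragments (107 to 152) and −log10 q at 93.9, in a peak on chromosome 7 from 89403293 to 89405169. This peak also covered the start of *Tmem135*, so its fragments cannot be assigned to *Fzd4* alone. *Fzd1* had a fold enrichment of 11.0 and 86 fragments (68.8 to 106), and *Fzd6*, known for its part in planar cell polarity, 9.14 and 31 fragments (21.1 to 44.0). The fold enrichment of *Fzd6* was thus near that of *Fzd5*, described next, which had far more fragments.

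Ranking by fragments gave another order at the top. *Fzd5* had 131 fragments (110 to 155), as many as *Fzd4* within counting error, but its local background of 13.6 fragments was the highest at any of the 38 starts and its fold enrichment was 9.04. *Fzd8* had 63 fragments, *Fzd7* 53, *Lrp6* 41 and *Fzd10* 34. *Fzd2* and *Fzd3* had 26 each, *Lrp5* 21 and *Fzd9* 14. *Fzd9* was the lowest of the class, at a fold enrichment of 4.31, and the only receptor whose start peak was not strong (−log10 q-value 4.89).

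Both coreceptors had a strong peak at the start, but the number of peaks in their loci differed. *Lrp6* had a fold enrichment of 9.01 and 41 fragments (29.4 to 55.6) at its start, and *Lrp5* 7.05 and 21 fragments (13 to 32.1), with intervals that overlap. The locus of *Lrp6* held 10 peaks, the most of any receptor, and that of *Lrp5* held 3 over a similar length. Among the Frizzled loci, *Fzd3* and *Fzd8* had 3 peaks each and the others 1 or 2. Of the 12 receptors, 6 (*Fzd1*, *Fzd2*, *Fzd7*, *Fzd8*, *Fzd9* and *Fzd10*) are single-exon genes, and the median gene length was 6.58 kb, against 22.7 kb in ligands and 44.2 kb in effectors.

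Away from gene starts, 3 of the 19 peaks at receptor loci were strong (15.8%), close to the 16.1% of such peaks in the whole list. At ligand loci 3 of 37 such peaks were strong (8.11%), and at effector loci 7 of 77 (9.09%). *Fzd5* had a peak with 47 fragments (34.5 to 62.5) in its exon, 4826 bp downstream of the start, where the background was also high and fold enrichment was 3.42. *Fzd7* had a peak with 28 fragments (18.6 to 40.5) and a fold enrichment of 7.71, 9712 bp upstream. The peak 9486 bp upstream of *Fzd8* had 21 fragments and a fold enrichment of 10.2, but 100% of its bases were repeat-masked. Reads that match several copies of a repeat were placed at 1 location, so the fragments of that peak cannot be assigned to this copy alone.

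Among the effectors, 3 genes of the β-catenin destruction complex had the highest fold enrichments at the start. *Gsk3b*, the kinase that phosphorylates β-catenin, had the highest values of all 38 genes, with 159 fragments (135 to 186), fold enrichment at 13.6 and −log10 q at 119, in a peak on chromosome 16 from 38088145 to 38089735. *Axin2*, a scaffold of the complex and a target of the pathway, had a fold enrichment of 11.9 and 102 fragments (83.2 to 124). The other scaffold gene, *Axin1*, had nearly the same fold enrichment, 11.0, on 35 fragments (24.4 to 48.7) and a low background of 2.28. *Apc* had 8.19 and 28 fragments. The fragment intervals of *Gsk3b*, *Axin2* and *Axin1* did not overlap, whereas those of *Axin1* and *Apc* did.

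*Ctnnb1*, the gene of β-catenin, was the only effector without a peak at its annotated start, the nearest peak being 1766 bp away. A peak on chromosome 9 from 120932331 to 120933699, which had 26 fragments (17.0 to 38.1) and a fold enrichment of 7.42, overlapped the windows around 3 other transcript starts of *Ctnnb1*, 4184, 4356 and 4602 bp downstream. Counted from any transcript start, all 12 effectors had a peak. A further *Ctnnb1* peak lay 9807 bp upstream, with 22 fragments and a fold enrichment of 7.28.

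The Dishevelled genes, whose products relay the signal from Frizzled, had lower values. *Dvl1* had a fold enrichment of 7.93 and 22 fragments, *Dvl3* 6.10 and 19 fragments, and *Dvl2* 3.49 and 18 fragments (10.7 to 28.4). The 3 counts differed by less than their intervals, and the lower fold enrichment of *Dvl2* went with a higher background of 4.44. The strongest peak of the *Dvl2* locus, with 60 fragments (45.8 to 77.2), lay 4963 bp upstream over the start of *Phf23*. Within 10 kb upstream of *Dvl2* a further peak covered the start of *Gabarap*, and upstream of *Dvl1* a peak covered that of *Mxra8*.

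Of the 4 factors that bind DNA with β-catenin, *Tcf7l1* had the strongest start and *Tcf7* the weakest. *Tcf7l1* had a fold enrichment of 9.21 and 64 fragments (49.3 to 81.7), *Tcf7l2* 8.21 and 42 (30.3 to 56.8), and *Lef1* 5.67 and 47 (34.5 to 62.5). *Tcf7* had 4.22 and 13 fragments (6.92 to 22.2), which lay below the intervals of the other 3, and 2 separate peaks within its start window. *Lef1* had a second peak of 39 fragments, 2064 bp downstream, over the window of its second transcript start. The local background at the start of *Lef1* was 7.46 fragments, and its fold enrichment was within the range of the ligands although its count was above them all.

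*Tcf7l1* and *Lef1* had the most peaks of all loci, 16 each. Both loci are long, at 172877 and 123886 bp against a median of 27425 bp over all protein-coding genes. Per 10 kb they held 0.926 and 1.29 peaks, against a median of 0.632 over all protein-coding genes. In *Tcf7l1*, 5 of the 16 were strong. Beside the start these were a peak with 52 fragments (38.8 to 68.2) in an intron 1666 bp downstream, a peak with 27 fragments 5872 bp upstream, and intronic peaks with 22 and 19 fragments 111842 and 132937 bp downstream. In *Lef1*, by contrast, 2 of the 16 were strong, both of them over transcript starts. Over the whole list, 22.2% of peaks were strong. *Gsk3b* and *Tcf7l2* had 13 peaks each, or 0.778 and 0.644 per 10 kb, and at both the start peak was the only strong one. *Axin2* had 9 peaks in a locus of 40.4 kb, or 2.23 peaks per 10 kb, the highest density of the 38 loci.

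*Dkk1*, which blocks *Lrp5* and *Lrp6* from outside the cell, had a peak with a fold enrichment of 4.63 and 19 fragments (11.4 to 29.7) at its start. A second peak of the same size, with 20 fragments (12.2 to 30.9) and a fold enrichment of 5.83, lay 4906 bp upstream. Neither was strong.

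Every one of the 38 loci held at least 1 peak, as did 84.5% of the loci of all protein-coding genes. The 38 loci held 173 peaks, of which 47 were at ligand, 32 at receptor, 92 at effector and 2 at *Dkk1* loci. Per 10 kb of locus, the median was 0.929 peaks in ligands, 0.965 in receptors and 0.852 in effectors, and 0.632 over all protein-coding genes. The order of the classes depended on the setting, as strong peaks alone gave medians of 0, 0.618 and 0.155 and gene bodies alone 1.49, 2.29 and 0.847, while all peaks of a class over its summed length gave 0.835, 0.661 and 0.887. The share of bases inside peaks had medians of 6.97% in ligands, 14.6% in receptors and 7.52% in effectors, and 4.67% over all genes. The receptor loci were short, with a median of 16.6 kb against 32.7 kb in ligands and 54.2 kb in effectors. Peaks at the gene start made up 37.5% of the receptor peaks, 19.1% of the ligand peaks and 13% of the effector peaks.

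Most peaks away from the starts were weak in all classes. Of the 173 peaks, 34 lay at the gene start, 29 upstream, 19 in exons and 91 in introns. The median was 26 fragments at the start, 14 upstream, 9 in exons and 8 in introns. Upstream peaks had medians of 8.5 fragments in ligands, 14 in receptors and 18 in effectors. Ligand introns held 25 peaks, receptor introns 9 and effector introns 57, with a median of 9, 7 and 9 fragments. The medians of the intronic peaks were thus alike in the 3 classes, and close to the median of 9 of the whole list. Strong intronic peaks numbered 3 of 25 in ligands, 0 of 9 in receptors and 5 of 57 in effectors. Of the ligand ones, 1 lay over the start of *Fbxl14*.

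**Figure D3:**
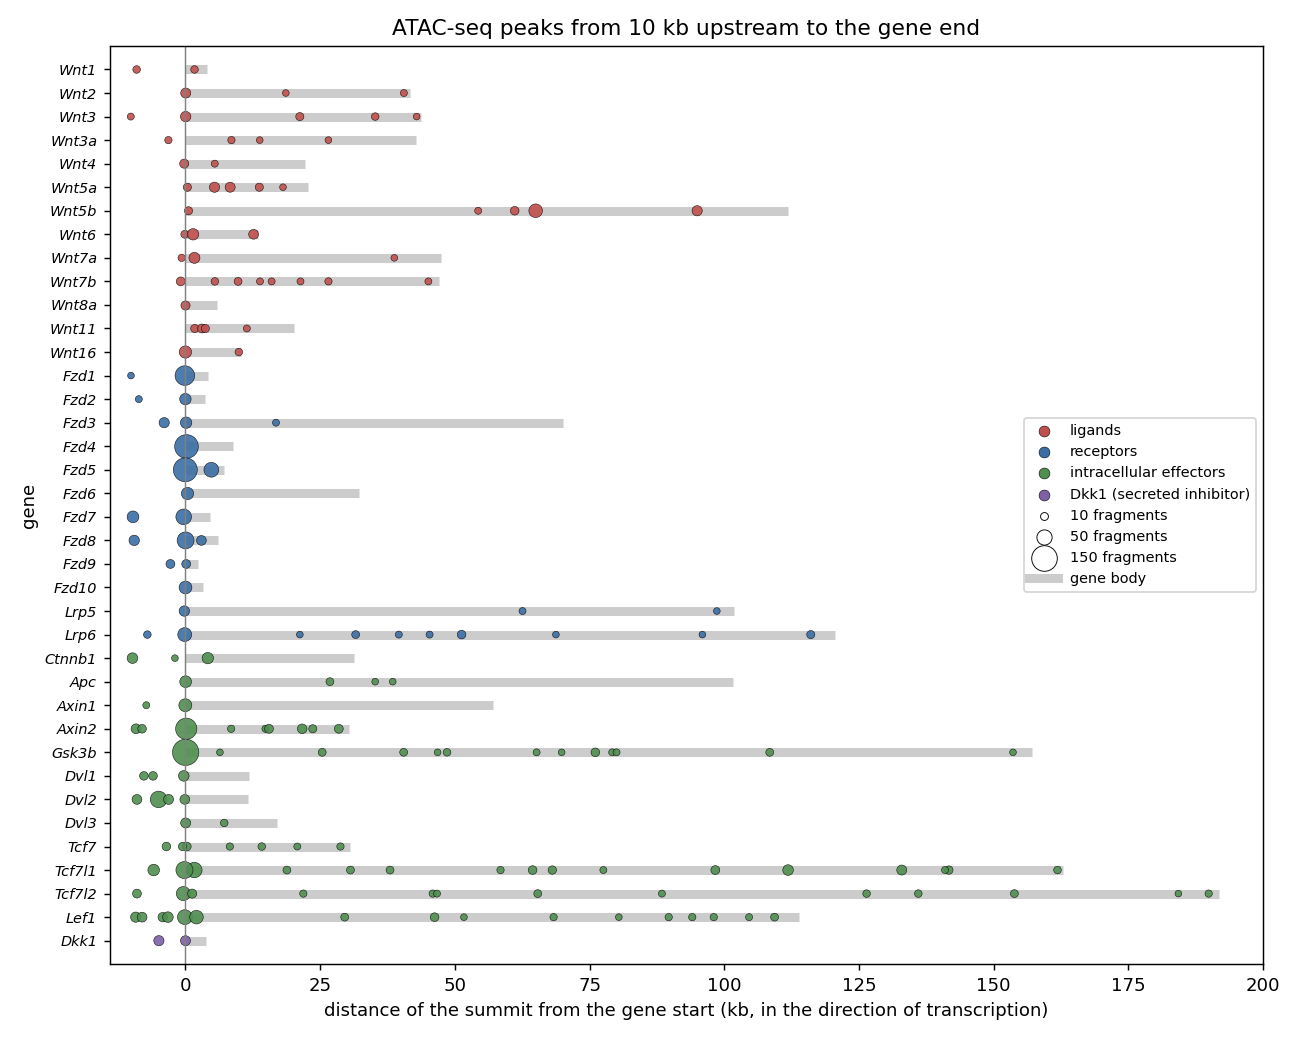
Peaks at the 38 loci by the distance of the summit from the gene start (kb, in the direction of transcription); the area of a point grows with the number of fragments over the summit, and grey bars are gene bodies. The largest points lie at the starts of Gsk3b, Fzd5, Fzd4 and Axin2, and Tcf7l1 and Lef1 have 16 peaks each along their length.

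CpG content was compared because accessible promoters in mESCs are usually rich in CpG. The ratio of observed to expected CpG in the 500 bp on either side of the start had a median of 0.654 in ligands, 0.852 in receptors and 0.832 in effectors, and 0.552 over all genes. With a ratio of at least 0.6 called CpG-rich, 9 of 13 ligands, all 12 receptors and 11 of 12 effectors were CpG-rich, against 46.0% of all protein-coding genes. Among these, 96.9% of the 10083 CpG-rich starts had a peak, and 36.6% of the others did.

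CpG-rich ligand starts had fewer fragments than other CpG-rich starts. Of the 9 such ligands 7 had a peak, with a median of 11 fragments, whereas the median over all CpG-rich starts with a peak was 38. The CpG-rich receptors and effectors had medians of 37.5 and 35 fragments and all had a peak. *Wnt3a* and *Wnt11* had no peak although their ratios were 0.748 and 0.818, and *Wnt5b*, with the highest ratio of the ligands (1.0), had 11 fragments. In contrast, *Wnt16* had the strongest ligand start at a ratio of 0.351. *Wnt8a*, also poor in CpG with 0.254, had 15 fragments. *Wnt4* was both rich in CpG, with the second highest ratio of the ligands (0.859), and among the 3 ligands with the highest fold enrichment. Within the ligands CpG content and the strength of the peak thus did not follow the same order.

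**Figure D4:**
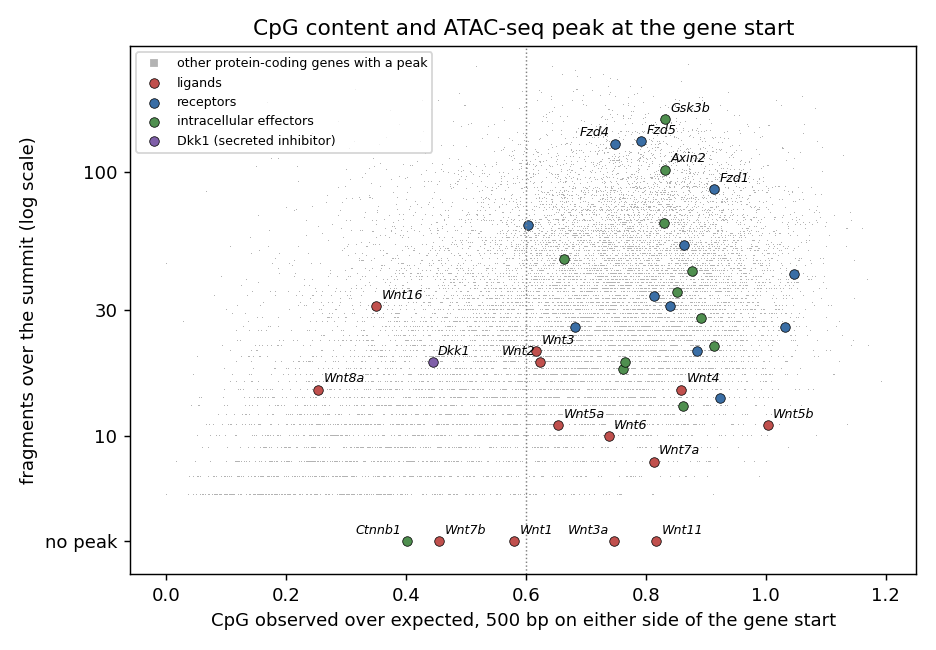
Fragments over the summit (log scale) against the ratio of observed to expected CpG around the gene start; colored points are the 38 genes, small grey points the other protein-coding genes with a peak, the dotted line is a ratio of 0.6, and starts without a peak are drawn on the lowest line. Right of the dotted line the ligands lie at 8 to 21 fragments or without a peak, whereas Wnt16 lies left of it at 31.

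Sequences that Tcf/Lef factors bind were searched near the summits, since several of these genes are known targets of the pathway. The letters CTTTGAT or CTTTGAA, on either strand, were found within 150 bp of the summit in 16 of the 173 peaks (9.25%), which is near the 9.63% of the whole list. They occurred in 4 of 47 peaks at ligand loci, 4 of 32 at receptor loci, 6 of 92 at effector loci and in both peaks of *Dkk1*. Of the genes with a match, *Lrp6* had 3 such peaks, *Axin2*, *Lef1*, *Gsk3b* and *Dkk1* had 2 each, and *Wnt3*, *Wnt5b*, *Wnt8a*, *Wnt11* and *Fzd2* had 1. No *Tcf7* peak had one. At an annotated gene start the letters were found only at *Axin2*, *Dkk1* and *Wnt8a*. Over all peaks of the list at protein-coding gene starts, 4.60% had them, and at the 38 loci 3 of 39 such peaks (7.69%).

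The matches at *Axin2*, *Lef1* and *Dkk1* are shown because these are the genes of the list best known to respond to Wnt. Those at the starts of *Axin2* and *Dkk1* lie in exons and are not printed. The sequences are from mm10, 5′ to 3′, with the letters in capitals: *Axin2* in an intron (chr11:108935054-108935100, plus strand), *Dkk1* upstream (chr19:30554458-30554504, minus strand), and 2 intronic sites of *Lef1* on the plus strand (chr3:131190840-131190886 and chr3:131200043-131200089).
Axin2 intron: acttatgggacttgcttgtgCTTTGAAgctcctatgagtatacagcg
Dkk1 upstream: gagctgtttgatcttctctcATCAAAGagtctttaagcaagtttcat
Lef1 first site: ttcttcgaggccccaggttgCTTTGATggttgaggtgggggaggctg
Lef1 second site: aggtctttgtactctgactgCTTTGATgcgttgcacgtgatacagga
The *Dkk1* site, 90 bp from a summit with 20 fragments, belonged to the strongest of these 4 peaks. The peaks of the 2 *Lef1* sites had 6 and 8 fragments, below the median of 9 over the list. The *Axin2* peak had 7 fragments and began at 108935133, so that its site lay beside the peak and not inside it. By contrast, the *Axin2* start peak, whose match lay 87 bp from the summit, had 102 fragments. A match of letters is not evidence that a factor was bound.

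Sequences of factors that are active in mESCs were searched in the same windows. The octamer ATGCAAAT, bound by *Pou5f1*, was found in 5 of the 173 peaks (2.89%), against 3.02% of the list, at *Wnt6*, *Tcf7* (2 peaks) and *Tcf7l1* (2 peaks). The *Wnt6* match was in the intronic peak with 26 fragments. The *Esrrb* sequence TCAAGGTCA was found in 3 peaks (1.73%, list 1.06%), at *Gsk3b*, *Tcf7* and *Tcf7l1*. The CTCF core CNAGGNGGC, in which N is any base, was found in 18 peaks (10.4%, list 7.75%), among them 3 peaks of *Wnt7b*, 3 of *Tcf7* and 4 of *Lef1*. The Nrf1 sequence GCGCATGCG was found in 1 peak (0.578%, list 0.456%), at *Axin2*. These shares rest on few peaks and lay near those of the list.

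The members were set beside 59 other genes of the pathway, grouped by role. Of these, 55 (93.2%) had a peak at the start, against 64.3% of all protein-coding genes, and 34 had a strong one, a share closer to the 47.1% of all genes. The 6 remaining ligands resembled those above, as *Wnt8b* and *Wnt10a* had no peak, and *Wnt2b*, *Wnt9a* and *Wnt10b* had 14, 19 and 9 fragments. *Wnt9b*, with 27 fragments and a strong peak, was also within their range. Its fold enrichment of 10, however, was above the highest of them, 8.16 at *Wnt16*. The 11 further intracellular genes all had a peak, 10 of them a strong one, with a median fold enrichment of 10.1. The strongest of them by fold enrichment was *Csnk1a1*, a kinase that primes β-catenin for *Gsk3b*, with 14.6 and 66 fragments.

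Values at the regulators outside the cell varied widely. Of the 11 genes listed as inhibitors outside the cell, 9 of them secreted proteins and 2 (*Kremen1* and *Kremen2*) membrane receptors of Dkk proteins, 10 had a peak, with a median fold enrichment of 6.4, and *Dkk4* had none. *Sfrp4* was the strongest of them, with 66 fragments. Among the R-spondins, which enhance Wnt signals, and the receptors and ubiquitin ligases they act on, all 9 had a peak. Fold enrichment ran from 3.92 at *Lgr6* to 13.6 at *Lgr4*, which had 156 fragments. *Porcn* and *Wls*, needed to lipidate and release Wnt proteins, had 24 and 40 fragments, more than 8 of the 9 ligands with a peak in the case of *Porcn* and more than all of them in the case of *Wls*. Of the 4 further coreceptors, all had a peak, but only that of *Ror1*, with a fold enrichment of 13.5, was strong, and *Ror2*, *Ryk* and *Ptk7* had 6.44, 5.56 and 5.18. Of the 11 nuclear cofactors 10 had a peak, and *Tle2* had none at its gene start but had one at another transcript start. The 4 further targets, *Sp5*, *Cdx1*, *Myc* and *Ccnd1*, all had a peak at the start, with fold enrichments between 3.30 and 4.85. *Myc* had 56 fragments and a strong peak, whereas *Ccnd1* had 22, *Sp5* 21 and *Cdx1* 12.

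The label of the cells was checked on marker genes. Of 8 genes of embryonic stem cells, 7 had a peak at the start, 6 of them a strong one (median 44 fragments), from *Pou5f1* with 17 fragments to *Zfp42* with 151, and *Esrrb* had its peak at another transcript start. A peak was also found at 4 of 5 fibroblast genes (median 15 fragments), 2 of 3 genes of primitive endoderm (22.5) and 3 of 3 trophoblast genes (15), and at neither of the 2-cell-like genes *Zscan4c* and *Zscan4d*. The peak was strong at 1 of the 5 fibroblast genes, 0 of the 3 endoderm genes and 1 of the 3 trophoblast genes. Over all protein-coding genes 64.3% had a peak and 47.1% a strong one, with a median of 32 fragments. Fibroblast, endoderm and trophoblast genes, which are few, thus had a peak more often than the background. Their shares with a strong peak and their median fragments were below it. According to the study's methods the cells were grown on feeders, which were embryonic fibroblasts kept from dividing, and whether any were in the libraries is not stated. Peaks at fibroblast genes reached 23 fragments at *Col1a2*, and *Postn* had none at its gene start. *Postn* and the endoderm gene *Gata4* did have a peak at another transcript start, as *Esrrb* did, so by starts of all transcripts every fibroblast and endoderm gene listed had one. The part that other cells had in the peaks of the Wnt pathway genes was not tested, and an accessible start is not a measure of expression.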

How the data were processed

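ATAC-seq was performed on 2 samples, 1 for each of 2 independent clones of EHMT2-dTAG mESCs in DMSO (1 group). Technical replicates were merged by the authors, who used BBMap for trimming, removed duplicates and ENCODE High Signal Regions, and shifted fragments for the Tn5 cut. The submitters' processing notes list STAR 2.7.10, Picard 2.26.0, SAMtools 1.14, bedtools 2.30.0 and MACS2 2.2.6. Reads with several equally good locations were written at 1 of them, so peaks in repeats share reads. The deposited list holds 116782 peaks of both clones merged in mm10, of which 3 mitochondrial peaks and 2 on sequence of another organism were left out. The deposited values are a fold enrichment, computed by the authors with MACS2 as a ratio of fragment pileup to local background, and −log10 p-values and q-values, also by the authors. Their score column was not used.

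From these, the number of fragments over each summit was calculated back with the default MACS2 pseudocount of 1 added to pileup and background. A number was called whole when it gave back the deposited −log10 p-value within 2e-05 beyond what rounding of fold enrichment to 5 decimals allows. With the pseudocount of 1, 116777 of 116777 peaks gave a whole number, and with 0, 0.5 and 2 only 2, 2 and 1 peaks did. Gene starts and ends were taken from GENCODE vM21, and sequences and repeat masking from the RefSeq copy of GRCm38, the same build as mm10. With 1 merged list no test was made, and classes are given by counts and medians beside all protein-coding genes, which are not replicates. Python 3.11.15, NumPy 2.4.6, pandas 2.3.3, SciPy 1.17.1, pysam 0.24.0 and matplotlib 3.10.9 were used.

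The genes, classes and marker lists were chosen with earlier results of these data known. Described in full were, in each class, the 3 members with the highest fold enrichment at the start, every member without a peak there and the 2 with the most peaks, and also *Axin2*, *Lef1*, *Tcf7*, *Tcf7l1*, *Ctnnb1* and *Dkk1*. Sequences were printed for the top member of each class and for Tcf/Lef matches at *Axin2*, *Lef1*, *Tcf7* or *Dkk1*, outside exons and not on chromosome 18. Alternatives were strong peaks alone (−log10 q of 10 or more), a window of 2000 bp, an overlap of 100 bp, the summit inside the window, the start of any transcript, other locus borders and other sequence windows.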

Additional observations from a re-analysis of the deposited data

How the results depend on the processing

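No paired analysis was possible because the deposited list merges both clones, and for the same reason neither clone could be left out. Across 14 results and 68 alternatives, 43 values stayed within the 95% binomial interval (shares) or within 1.5 times (medians) of the value reported, and 25 did not. The binomial interval is wider in small classes, so these counts depend in part on class size and measure no replicate spread. For the share of starts with a peak, ligands came last in all 6 settings, and receptors came first in 4 and were level with effectors at 100% in the other 2 (a window of 2000 bp and any transcript start). For median fold enrichment the order of receptors, effectors and ligands held in all 7 settings. These settings draw on overlapping sets of start peaks and are not independent. Receptors and effectors were close, at 8.43 and 8.19 in the main setting. With strong peaks alone (−log10 q of 10 or more), the share was 15.4% in ligands and 47.1% in all genes. With a window of 2000 bp it was 92.3% in ligands, 100% in effectors and 69.9% in all genes. With any transcript start it was 84.6% in ligands, 100% in effectors and 70.0% in all genes. Asking for the summit inside the window gave 53.8% in ligands, below the 57.4% in all genes. With starts without a peak entered as 1, median fold enrichment was 2.97 in ligands and 5.56 in all genes.

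For peaks per 10 kb the order of the classes changed with the setting. With strong peaks alone the medians were 0 in ligands, 0.618 in receptors, 0.155 in effectors and 0.145 in all genes. Over gene bodies they were 1.49 in ligands and 2.29 in receptors. With 50 kb upstream, receptors had 0.631 and came last, behind effectors and ligands. Without peaks at gene starts, receptors had 0.635, again the last, and all genes 0.370. Tcf/Lef letters were found in 22.5% of member peaks and 18.7% of the list over whole peaks, and in 4.05% and 4.04% with CTTTGAT alone. In the list they were found in 6.71% of strong peaks and in 10.3% away from gene starts. The cause of these shifts was not tested beyond the construction of each alternative. The list gives no depth per clone. Most intronic peaks rested on fewer than 10 fragments, and the 95% interval of 6 fragments runs from 2.2 to 13.1.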

Other observations

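Some Wnt genes lie next to each other in the genome. The start of *Wnt1*, which had no peak, lies 11.71 kb from that of *Wnt10b*, which had 9 fragments, and that of *Wnt3a*, also without a peak, lies 16.18 kb from that of *Wnt9a* with 19. *Wnt3* and *Wnt9b*, 24.33 kb apart, had 21 and 27 fragments and were the only such neighbors with strong peaks at both starts. *Wnt6* with 10 fragments lies 19.62 kb from *Wnt10a*, which had no peak.

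Few of the 173 peaks lay in repeats. Most of the bases were repeat-masked in 5 of them (2.89%), against 21.0% of the whole list. They were at *Fzd8*, *Apc*, *Gsk3b*, *Tcf7l1* and *Lef1*, each at a distance from the gene start, with 6 to 21 fragments.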
